A study of Mus musculus with 9 samples.

Results

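The p53 target genes examined here are 10 genes chosen by name, each a gene that the transcription factor p53 is known to switch on: Ccng1, Plk2, Mdm2, Trp53inp1, Bax, Sesn2, Phlda3, Aen, Eda2r and Zmat3. Every probe set annotated to 1 of these symbols alone was taken, which gave 19 of the 45101 probe sets on the array, for 9 of the 10 genes. The pro-apoptotic gene Bax had no probe set under its name in the annotation used and was not analysed here. A probe set is a group of short probes that reads 1 transcript, usually near its 3 prime end. Of the 19 probe sets, 15 lay above the filter level (the 40th percentile of signals on an array, 25.9 to 32.0) on each of the 9 arrays and were tested among 28655 probe sets. The other 4, 1 each of Plk2, Mdm2, Trp53inp1 and Aen, passed that level on at most 2 arrays, with signals of 0.653 to 29.9, and were not tested.

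RNA came from mouse small intestinal organoids, closed cultures of intestinal epithelium, kept for 6 days and read on Affymetrix whole-genome mouse expression arrays. There were 3 arrays in each of 3 groups: Tgfbeta1 ligand at 0.04 ng/mL, Tgfbeta inhibitor (an inhibitor of the receptors Tgfbr1 and Tgfbr2) at 20 uM, and no treatment. Both agents were given from day 1 for 5 days. The sources used here give no strain or genotype of the mice, no compound name for the inhibitor and no vehicle. They do not say either whether replicates came from different cultures, and the p-values below therefore refer to the spread of these arrays, possibly a technical one. Signals are MAS5 signals on a linear scale, given as mean ± SD, and changes are log2(signal + 16) differences ± SE from limma, with n = 3 arrays per group throughout. A probe set counts as called (as having risen or fallen) where its p adjusted over all 28655 probe sets was under 0.05, and a gene is represented by its lead probe set, the brightest of its probe sets that does not end in _x_at.

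The protein p53 is a transcription factor held at a low level by Mdm2, the ubiquitin ligase that marks it for destruction and is itself induced by p53, which closes a feedback loop. DNA damage and other stresses stabilise p53, and its targets then stop the cell cycle, aid repair or start cell death. In the intestine this response is best known in the crypts, where dividing cells die or arrest after irradiation. Many of the targets also respond to other signals, so their RNA is not a measure of p53 activity alone.

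The DNA that p53 binds is made of a pair of half-sites of 10 bases, each with the core CNNG. Windows from 250 bases before to 50 bases after the transcription start were found for 8 of the 10 genes in a RefSeq table (build GRCm38.p6), 9 windows in all. They were searched for the p53 consensus, which reads the same on both strands. In each half-site it is RRRCWWGYYY, where R is A or G, W is A or T and Y is C or T. A site was 2 adjacent half-sites with the C and G of both cores kept. At most 3 mismatches were allowed at the other positions, among them the 2 middle bases of each core. Such a site was present in Ccng1 and Aen, 2 of the 8 genes, and in 1.63% of the 27025 genes with a window. By window it was present in 3 of 9, and in 1.38% of the 32851 windows of all genes. Aen has 2 windows that overlap and hold the same site, so the counts by window include that site 2 times. A half-site without a mismatch was present in Ccng1, Aen, Mdm2 and Bax, 4 of the 8 genes, and in 9.55% of all genes. By window it was present in 5 of 9, and in 8.36% of all windows. The windows of Plk2, Sesn2, Phlda3 and Eda2r held neither. A match describes letters only, and sites outside the windows were not searched. The windows of Ccng1 and Aen are shown because both hold the pair of half-sites while Ccng1 was called and Aen was not, that of Plk2 because this gene rose in both treated groups, and the stretch around the half-site of Mdm2 because of its place in the feedback loop. Capitals mark the matches.
Ccng1, chr11:40755237-40755536, minus strand: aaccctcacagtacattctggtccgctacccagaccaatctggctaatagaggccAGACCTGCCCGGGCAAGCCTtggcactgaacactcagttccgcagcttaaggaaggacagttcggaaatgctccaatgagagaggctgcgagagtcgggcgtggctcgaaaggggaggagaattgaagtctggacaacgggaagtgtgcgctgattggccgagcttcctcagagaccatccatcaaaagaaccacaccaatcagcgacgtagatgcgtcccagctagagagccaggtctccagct
Aen, chr7:78895808-78896107, plus strand: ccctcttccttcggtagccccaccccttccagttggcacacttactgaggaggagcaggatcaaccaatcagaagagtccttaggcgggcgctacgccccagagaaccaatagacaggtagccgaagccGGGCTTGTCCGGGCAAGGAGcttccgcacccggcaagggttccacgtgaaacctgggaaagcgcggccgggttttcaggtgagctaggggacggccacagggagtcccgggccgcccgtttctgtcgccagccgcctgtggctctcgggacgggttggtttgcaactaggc
Plk2, chr13:110394794-110395093, plus strand, no match: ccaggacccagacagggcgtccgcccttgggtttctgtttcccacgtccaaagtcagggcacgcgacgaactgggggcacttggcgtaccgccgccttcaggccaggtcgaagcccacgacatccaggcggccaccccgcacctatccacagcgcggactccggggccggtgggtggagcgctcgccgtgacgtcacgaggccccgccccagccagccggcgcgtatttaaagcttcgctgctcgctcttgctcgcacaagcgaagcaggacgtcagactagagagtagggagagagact
Mdm2, chr10:117710915-117710964, minus strand: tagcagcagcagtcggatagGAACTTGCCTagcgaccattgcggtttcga
The pair of half-sites in Ccng1 begins 195 bases before the start and has 1 mismatch, at a middle base of the core of its first half-site. The pair in Aen has 3 mismatches and begins 121 bases before the start of the window shown. In the other window of Aen it begins 10 bases after the start. The half-site in Mdm2 begins 186 bases before its start.

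With the receptors inhibited, most of the p53 targets rose. Of the 9 genes tested, 7 rose (Ccng1, Plk2, Mdm2, Trp53inp1, Phlda3, Eda2r and Zmat3), 6 of them by at least 1.5-fold, and 0 fell. Sesn2 and Aen did not pass. Over all 12941 genes, 19.9% rose and 22.6% fell, and 8.06% rose by at least 1.5-fold. The median change of the 9 genes was 0.76 against -0.01 over all genes. By probe set, 9 of 15 rose and 0 fell, where 15.0% of all probe sets rose and 20.1% fell. At an unadjusted p under 0.05 limma gave 11 higher and 0 lower. No share of all probe sets or genes is given at that looser level, here or for the unadjusted counts below. Those counts therefore cannot be set against the shares of calls. Inhibitor and untreated arrays did not overlap in 8 of the 9 genes, each time with the inhibitor arrays higher, as in 26.7% of all genes. The members were picked with earlier results of these arrays known, so the count describes them and is not independent evidence.

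**Figure D1:**
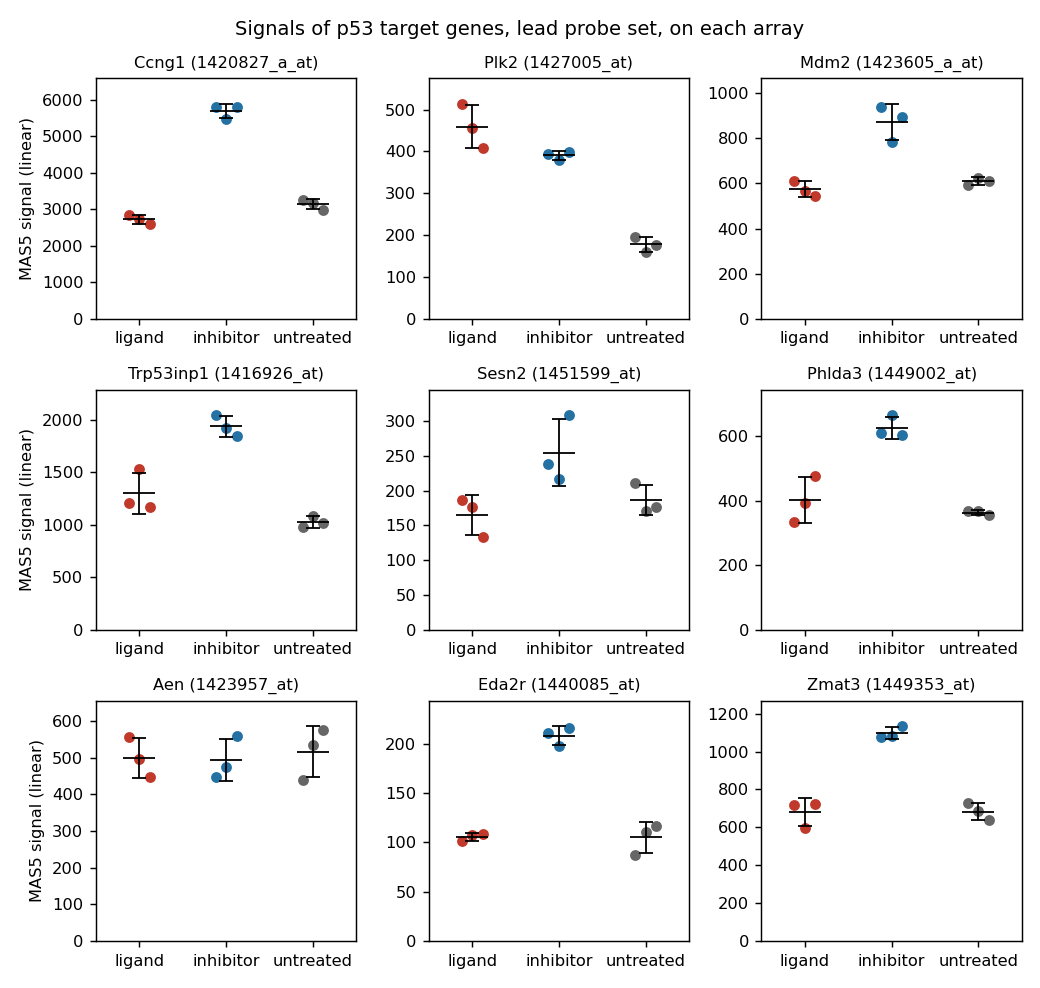
MAS5 signal (linear axis from 0) of the lead probe set of each of the 9 genes on the 9 arrays, with ligand, inhibitor and untreated arrays from left to right. Points are arrays and the black marks are the mean and SD of 3. The inhibitor arrays stand above the untreated arrays in 8 panels and overlap them in that of Aen, and in the panel of Plk2 the ligand arrays are high as well.

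Mdm2 and Ccng1 belong to the feedback around p53. Ccng1, which encodes cyclin G1, a partner of the phosphatase PP2A that acts on Mdm2, had signals of 2833, 2744 and 2594 on the ligand arrays, 5811, 5468 and 5799 on the inhibitor arrays, and 3258, 3169 and 2994 on the untreated arrays. The inhibitor arrays were the highest and the ligand arrays the lowest, with no overlap between any of the groups. Ccng1 rose 1.81-fold with the inhibitor against untreated (0.86 ± 0.07, adjusted p 1.79e-06). With the ligand its change from untreated was -0.20 ± 0.07 and did not pass (adjusted p 0.0676), though it was called lower under 3 of 19 alternatives: the 60th percentile filter (0.0486), median centring (0.0344) and 1 probe set per gene (0.0437), in a range of 0.0344 to 0.205. Both further probe sets of Ccng1 showed the same order of groups. They rose with the inhibitor by 1.42 ± 0.07 (adjusted p 6.47e-08) and 0.92 ± 0.08 (adjusted p 2.52e-06), so the size of the rise ran from 1.81-fold to 2.67-fold depending on the probe set. The probe set with the largest rise, 1450016_at, was also called lower with the ligand against untreated (-0.24 ± 0.07, adjusted p 0.0451), which was lost under 11 of its 18 alternatives, the replicate block among them. These were leaving out any of the untreated arrays, inhibitor replicate 1 or 3 or ligand replicate 1 or 2, and several other settings, and its adjusted p ran from 0.0178 to 0.129. The remaining probe set, 1450017_at, missed the threshold with the ligand (-0.23 ± 0.08, adjusted p 0.0640) and was called lower with the 60th percentile filter (0.0470), quantile normalization (0.0359) and median centring (0.0185), in a range of 0.0185 to 0.182.

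Mdm2 had signals of 613, 567 and 543 with the ligand, 938, 782 and 894 with the inhibitor, and 592, 626 and 611 without treatment. The inhibitor arrays stood above all others, and ligand and untreated arrays overlapped. The rise with the inhibitor was 1.42-fold (0.50 ± 0.08, adjusted p 4.82e-04), the smallest among the 7 genes that rose. Its change with the ligand was -0.08 ± 0.08 (95% confidence interval -0.27 to 0.10). A second probe set of Mdm2, 1427718_a_at, was dimmer, at 143 ± 9.37 with the ligand, 161 ± 34.4 with the inhibitor and 136 ± 24.5 without treatment. All groups overlapped on it and its change with the inhibitor, 0.21 ± 0.15 (interval -0.12 to 0.55), did not pass, so the rise of Mdm2 rests on the brighter probe set.

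Plk2, a stress-inducible polo-like kinase that takes part in centriole duplication, was high in both treated groups and had the largest rise of the members with the ligand. Trp53inp1, described below, was also called higher in both. Plk2 had signals of 513, 456 and 409 with the ligand, 395, 379 and 399 with the inhibitor, and 196, 159.7 and 177 without treatment. No untreated array reached the level of any treated array. Plk2 rose 2.45-fold with the ligand (1.29 ± 0.10, adjusted p 6.02e-06) and 2.11-fold with the inhibitor (1.08 ± 0.10, adjusted p 6.19e-06), each against untreated. These comparisons share the untreated arrays. Between the treatments the groups did not overlap, with the ligand arrays higher, but the difference of 0.22 ± 0.10 did not pass (adjusted p 0.0996, interval -0.00 to 0.44), except without ligand replicate 3, where its adjusted p was 0.0341, in a range of 0.0341 to 0.649.

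Trp53inp1, a stress protein with roles in autophagy and cell death, had signals of 1208, 1529 and 1173 with the ligand, 2045, 1926 and 1845 with the inhibitor, and 978, 1089 and 1017 without treatment. The 3 groups did not overlap, and the ligand arrays lay between the others. It rose 1.87-fold with the inhibitor (0.91 ± 0.10, adjusted p 1.54e-05). The rise of 0.33 ± 0.10 with the ligand passed at an adjusted p of 0.0368, but not without untreated replicate 1 (0.124), 2 (0.0516) or 3 (0.0901), inhibitor replicate 2 (0.0547) or ligand replicate 2 (0.118, at a log2 change of 0.21). Nor did it pass with only the 2 groups compared (0.0712), with no filter (0.0629), under median centring (0.181) and with no intensity trend (0.0933), in a range of 0.0156 to 0.181.

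Sesn2, a sestrin that restrains the growth kinase mTORC1 and is also induced through the stress factor ATF4, had signals of 187, 176 and 133 with the ligand, 238, 216 and 308 with the inhibitor, and 211, 171 and 177 without treatment. Its inhibitor arrays were above the others, while ligand and untreated arrays overlapped. The change with the inhibitor was 0.41 ± 0.15 and missed the threshold (adjusted p 0.0529, interval 0.08 to 0.73). It passed under 9 of 19 alternatives, among them without untreated replicate 1 (0.0443), inhibitor replicate 2 (0.0367) or ligand replicate 3 (0.0272), in a range of 0.0203 to 0.220, and without inhibitor replicate 3 the change was 0.27. The second probe set of Sesn2, 1425139_at, had signals of 50.0, 71.6 and 90.5 with the ligand, 181, 141 and 154 with the inhibitor, and 113, 93.0 and 132 without treatment. On it the 3 groups did not overlap. Its change of 0.45 ± 0.18 with the inhibitor missed the threshold (adjusted p 0.0736, between 0.0323 and 0.227 over the alternatives) and passed without ligand replicate 1 or 3 and in 3 more cases. With the ligand this probe set fell by 0.59 on the log2 scale (SE 0.18, adjusted p 0.0445), a call lost under 10 of 18 alternatives, among them without untreated replicate 1 or 3, any 1 of the inhibitor arrays, or ligand replicate 1 or 2, in a range of 0.0122 to 0.161.

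Zmat3, a zinc finger protein that binds RNA, had signals of 719, 598 and 725 with the ligand, 1076, 1080.4 and 1133 with the inhibitor, and 727, 684 and 637 without treatment. The inhibitor arrays were close together and above the rest, and the other groups overlapped. Zmat3 rose 1.59-fold with the inhibitor (0.67 ± 0.09, adjusted p 6.76e-05), and its change with the ligand was -0.01 ± 0.09 (interval -0.20 to 0.18).

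The remaining members act on survival or death of the cell. Phlda3, a small lipid-binding protein that holds back the survival kinase Akt, had signals of 333, 394 and 475 with the ligand, 609.8, 664 and 603 with the inhibitor, and 367, 368 and 354 without treatment. The inhibitor arrays were higher than all others, and the ligand arrays were spread on both sides of the untreated ones. Phlda3 rose 1.69-fold with the inhibitor (0.76 ± 0.11, adjusted p 1.58e-04), and its change with the ligand was 0.12 ± 0.11 (interval -0.11 to 0.36). Eda2r, a receptor of the tumour necrosis factor family that binds ectodysplasin A2, had signals of 101, 107 and 108 with the ligand, 211, 198 and 216 with the inhibitor, and 87.5, 111 and 117 without treatment. Here too the inhibitor group alone was high, with a 1.86-fold rise (0.90 ± 0.12, adjusted p 9.42e-05), and the ligand gave a change of 0.02 ± 0.12 (interval -0.25 to 0.28).

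Aen, a nuclease named for enhancing apoptosis, was called in none of the 3 comparisons. Its lead probe set had signals of 555, 495 and 447 with the ligand, 446, 475 and 558 with the inhibitor, and 439, 534 and 574 without treatment. The 3 groups overlapped throughout. The change was -0.06 ± 0.12 with the inhibitor (interval -0.31 to 0.19) and -0.04 ± 0.12 with the ligand (interval -0.30 to 0.21). Neither of its 2 further tested probe sets passed in a comparison, with changes of 0.24 ± 0.18 and -0.25 ± 0.18 for the inhibitor against untreated. The second of these, 1437373_at, had its inhibitor arrays (61.0 to 70.7) below the untreated arrays (78.6 to 89.7). The first of these, 1450506_a_at, passed for ligand against untreated without ligand replicate 1 (0.55, adjusted p 0.0371, in a range of 0.0371 to 0.541).

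**Figure D2:**
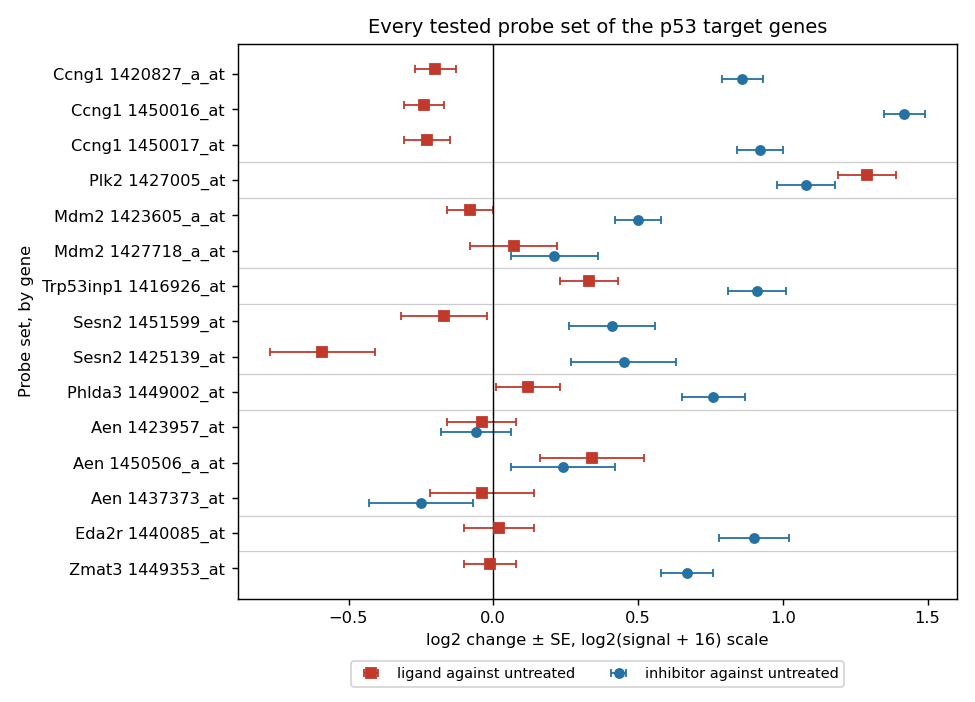
Log2 change ± SE of each of the 15 tested probe sets, by gene from top to bottom, for ligand against untreated (red squares) and inhibitor against untreated (blue circles), which share the untreated arrays. The 3 probe sets of Ccng1 lie to the right of 0.8 for the inhibitor and to the left of 0 for the ligand, and those of Aen lie on both sides of 0 for the inhibitor.

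With the ligand against untreated, few of the p53 targets moved. Of the 9 genes, 2 rose (Plk2 and Trp53inp1) and 0 fell, where 12.8% of all genes rose and 8.04% fell, so the share that rose stood near that of all genes. Ccng1 was called lower as well where 1 probe set per gene was tested, under median centring and with the 60th percentile filter, so 0 falls did not hold there. At an unadjusted p under 0.05 limma gave 2 higher and 1 lower. The median change was -0.01 against 0.05 over all genes. By probe set, 2 of 15 rose and 2 fell (9.73% and 5.92% of all probe sets). Of these 4 calls, that of Plk2 held under each of the 19 alternatives run. The count was 1 without untreated replicate 1, untreated replicate 3 or ligand replicate 2, and 2 without untreated replicate 2 or any 1 of the inhibitor arrays. Centring the arrays on their medians moved the median change of all probe sets by -0.11, and 35.4% of all calls in this comparison were then higher, against 62.2% as scaled by the authors. For the p53 target probe sets it left 1 higher (Plk2) and 4 lower (the 3 of Ccng1 and 1425139_at of Sesn2).

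In the direct comparison most of the p53 targets were lower with the ligand than with the inhibitor. Of the 9 genes, 7 were lower with the ligand (Ccng1, Mdm2, Trp53inp1, Sesn2, Phlda3, Eda2r and Zmat3) and 0 were higher, where 22.2% of all genes were lower and 31.7% higher. At an unadjusted p under 0.05 limma also gave 7 lower and 0 higher. The median change was -0.59 against 0.07 over all genes. The largest difference among the 9 genes was that of Ccng1, at -1.06 ± 0.07 on its lead probe set (adjusted p 1.15e-07) and -1.66 ± 0.07 on 1450016_at. Eda2r followed with -0.88 ± 0.12, and Sesn2, which missed the threshold with the inhibitor, differed here by -0.57 ± 0.15 (adjusted p 0.00707) and by -1.03 ± 0.18 on its second probe set (adjusted p 4.21e-04). By probe set, 10 of 15 were lower and 0 higher (17.9% and 29.4% of all probe sets). Median centring moved the median of all probe sets by -0.16 in this comparison and quantile normalization by -0.12, and the higher share of all calls was 43.7% and 51.4%, against 62.1% as scaled by the authors.

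**Figure D3:**
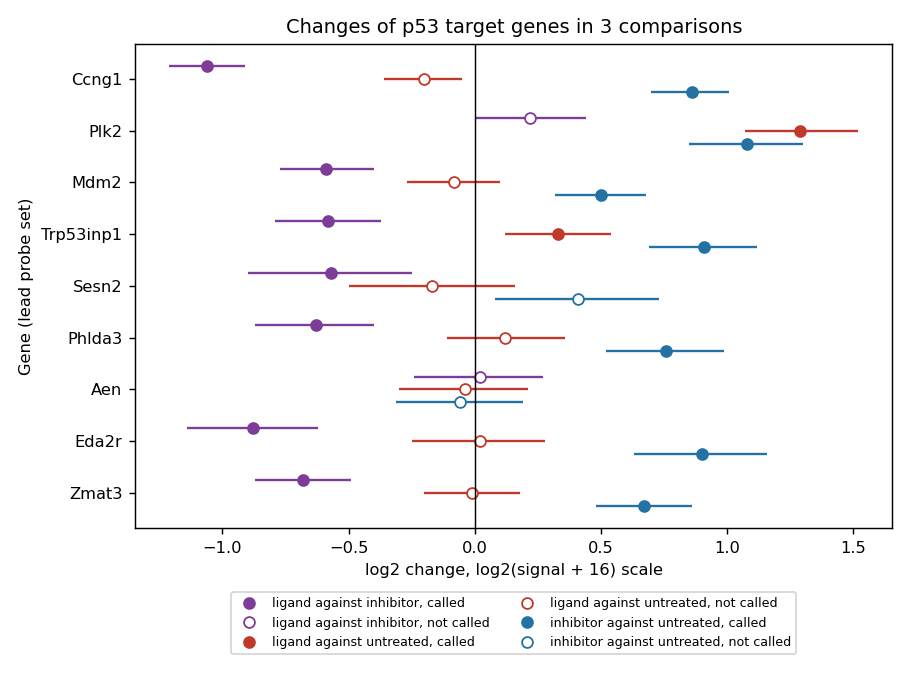
Log2 change of the lead probe set of each gene with its 95% confidence interval, for ligand against inhibitor (purple), ligand against untreated (red) and inhibitor against untreated (blue). Filled points passed at an adjusted p under 0.05. Blue points are filled at positive values for 7 genes, purple ones are filled at negative values for 7 genes, and red ones are filled for Plk2 and Trp53inp1.

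Markers of the labelled tissue were present. All 9 epithelial markers were above the filter, with a summed signal of 69439 to 79335 with the ligand, 68233 to 78341 with the inhibitor and 67309 to 71386 without treatment. Of the fibroblast, leukocyte and endothelial markers, 2 of 8, 3 of 8 and 1 of 6 were tested, and the defining genes Col1a1, Ptprc, Cd3e, Pecam1 and Cdh5 lay under the filter level without being at 0. The leukocyte sum was 187 to 248 with the ligand, 330.0 to 383 with the inhibitor and 212 to 254 without treatment. Of the 3 leukocyte markers tested, Csf1r and Cd68 rose with the inhibitor, and Adgre1 did not (0.03 ± 0.18, adjusted p 0.906). Markers of cell types within the epithelium moved as well: absorptive enterocyte markers summed to 56456 to 64894 with the ligand, 91056 to 108554 with the inhibitor and 76003 to 84915 without treatment, with 6 of 13 higher and 0 lower with the inhibitor. Crypt stem cell markers summed to 46304 to 54693, 14485 to 16137 and 36042 to 41106 in the same groups, with 1 of 12 higher and 11 lower with the inhibitor. With the ligand 1 of the 13 enterocyte markers was higher and 8 were lower. Of the 12 stem cell markers, 8 were higher and 0 lower with the ligand. Of 9 Paneth, goblet, enteroendocrine and tuft cell markers, 0 were higher and 3 lower with the inhibitor, and 4 higher and 1 lower with the ligand. Over all genes 19.9% were higher and 22.6% lower with the inhibitor, and 12.8% and 8.04% with the ligand. The part of these cell types in the changes of the p53 targets was not tested, and in bulk RNA a change in the number of cells of a type and in the RNA per cell cannot be told apart.

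Further genes of the p53 pathway were taken from 6 lists. In the 4 lists of other p53 targets, 45 of 53 genes were tested, of which 19 rose and 6 fell with the inhibitor, where 19.9% of all genes rose and 22.6% fell, and the median was 0.20 against -0.01 over all genes. The same shares of all genes stand behind each count of inhibitor calls by list below. The median of 0.20 was smaller than the 0.76 of the 9 genes above. With the ligand 9 rose and 3 fell, where 12.8% of all genes rose and 8.04% fell, with a median of 0.13 against 0.05 over all genes. The balance of ligand calls depended on the scaling: over all 6 lists 15 were higher and 5 lower as scaled by the authors, and 5 higher and 8 lower under median centring.

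Among the genes of cell cycle arrest, 4 of 8 tested rose with the inhibitor and 1 fell. Gadd45a, a damage-inducible stress gene, was at 784 ± 12.9 with the ligand, 1287 ± 81.5 with the inhibitor and 852 ± 31.5 without treatment, and rose with the inhibitor by 0.58 ± 0.07. Cdkn1a, which encodes the cyclin-dependent kinase inhibitor p21, stood at 3072 ± 383, 4894 ± 116 and 3624 ± 142 in the same groups and rose with the inhibitor by 0.43 ± 0.09. Its change of -0.24 ± 0.09 with the ligand did not pass (adjusted p 0.0822), but did without ligand replicate 3 (0.0113, in a range of 0.0113 to 0.276). Sfn, or 14-3-3 sigma, rose with the inhibitor by 0.47 ± 0.11, and Ckap2, a spindle protein, fell by 0.49 (SE 0.12).

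Of 12 cell death genes, 5 rose and 3 fell with the inhibitor. Fas, a death receptor, had signals of 47.4, 51.4 and 51.0 with the ligand, 243, 219 and 256 with the inhibitor, and 122, 113 and 106 without treatment. The groups were far apart, with the ligand arrays lowest: Fas fell with the ligand by 0.98 (SE 0.12, adjusted p 1.24e-04) and rose with the inhibitor by 0.97 ± 0.12 (adjusted p 3.75e-05), both against the same untreated arrays. Pmaip1, the BH3-only protein Noxa, was at 1309 ± 56.4 with the ligand, 2331 ± 82.9 with the inhibitor and 1518 ± 37.4 without treatment. It rose with the inhibitor by 0.61 ± 0.07, while its call with the ligand (-0.21 ± 0.07, adjusted p 0.0474) was lost under 13 of 19 alternatives, including each of the 9 that left out 1 array, in a range of 0.0210 to 0.131. Siva1, a pro-apoptotic protein, and Trp53i11 ran the other way and fell with the inhibitor by 0.47 (SE 0.08) and 0.57 (SE 0.14).

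Genes of repair and metabolism rose in 5 of 13 and fell in 1 with the inhibitor. The one that fell was Ddb2, a damage sensor of nucleotide excision repair, with signals of 473, 537 and 463 with the ligand and means of 227 ± 22.0 with the inhibitor and 406 ± 11.2 without treatment (-0.80 ± 0.09 for the inhibitor, adjusted p 3.16e-05). The lipase gene Abhd4 (0.72 ± 0.07), the thiamine transporter gene Slc19a2 (0.51 ± 0.08) and the repair endonuclease gene Ercc5 (0.45 ± 0.09) rose. Of 12 secreted, signalling and other targets, 5 rose and 1 fell with the inhibitor, led by the small GTPase gene Rap2b (1.15 ± 0.12) and by Trp53inp2 (1.04 ± 0.09), a relative of Trp53inp1 in autophagy whose place among p53 targets is less established. Tgfa, a ligand of the EGF receptor, rose by 0.62 ± 0.07. Ddit4, an inhibitor of mTORC1 that many stresses induce, fell with the inhibitor by 0.33 (SE 0.09, adjusted p 0.0116), a call that needed both untreated replicate 3 and inhibitor replicate 2 (adjusted p between 0.00584 and 0.0603 over the alternatives), and rose with the ligand by 0.60 ± 0.09.

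**Figure D4:**
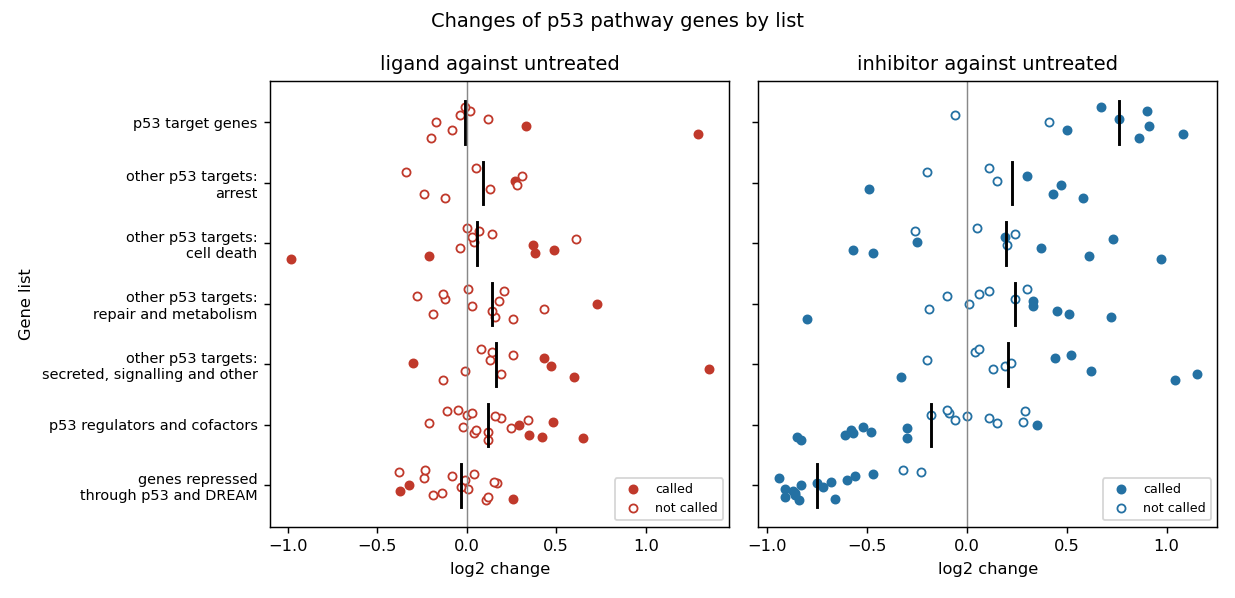
Log2 changes of tested genes by list for ligand against untreated (left, red) and inhibitor against untreated (right, blue). Each point is a gene's lead probe set, filled where called, and black bars are medians. With the inhibitor the median is 0.76 for the p53 target genes at the top and -0.75 for the p53 and DREAM genes at the bottom.

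Genes that act upstream of or together with p53 were lower with the inhibitor more often than higher: 9 of 19 fell and 1 rose, with a median of -0.18, where falls also outnumbered rises over all genes (22.6% and 19.9%). The damage kinase genes Atr (-0.83 ± 0.07) and Atm (-0.61 ± 0.09) and the checkpoint kinase gene Chek1 (-0.85 ± 0.11) fell, as did Mdm4, the partner of Mdm2 in restraining p53 (-0.58 ± 0.10). Mdm4 had a signal of 1239 ± 104 with the ligand, 798 ± 115 with the inhibitor and 1195 ± 47.5 without treatment, so the lead probe sets of Mdm2 and Mdm4 were called in opposite directions with the inhibitor. The other tested probe set of Mdm2 was not called (0.21 ± 0.15, adjusted p 0.309). Trp53bp1, a repair scaffold that binds p53, fell with the inhibitor by 0.30 (SE 0.08, adjusted p 0.00976), though not under median centring (0.0822, in a range of 0.00546 to 0.0822), and rose with the ligand by 0.65 ± 0.08. With the ligand 5 of the 19 rose and 0 fell (8 and 1 at an unadjusted p under 0.05 in limma), where 12.8% of all genes rose. Of these, Atm (0.35 ± 0.09, adjusted p 0.0139) lost its call without untreated replicate 1 (0.0617) and under median centring (0.165), the highest of its alternatives, which began at 0.00749. Chek1 (0.42 ± 0.11, adjusted p 0.0215) lost its call under median centring (0.0518), with no intensity trend and without untreated replicate 1 or 2 or ligand replicate 1 or 2, in a range of 0.00605 to 0.0889. Trp53, the gene of p53 itself, had no probe set under its name in the annotation used and was not analysed here.

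Cell cycle genes that p53 can repress through p21 and the DREAM complex, a repressor of mitotic genes, fell in 15 of 17 and rose in 0 with the inhibitor (16 and 0 at an unadjusted p under 0.05 in limma), with a median of -0.75. Whether p53 had a part in these falls was not tested. Top2a, a topoisomerase of dividing cells, was at 4177 ± 169.6 with the ligand, 2162 ± 50.4 with the inhibitor and 3873 ± 156 without treatment. It fell with the inhibitor by 0.84 (SE 0.07, adjusted p 1.66e-06), Bub1b by 0.91 (SE 0.08), Ccnb2 by 0.86 (SE 0.07) and Cenpf by 0.66 (SE 0.07). With the ligand 1 of the 17 rose and 2 fell, where 12.8% of all genes rose and 8.04% fell. The 1 that rose, Cenpf (0.26 ± 0.07, adjusted p 0.0187), lost its call under 4 of 19 alternatives. Its adjusted p ran from 0.00939 to 0.307, the highest under median centring.

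By the root mean square difference of log2 values over the 9 arrays, each centred on its own mean, the genes closest to Plk2 were Cadm1, a cell adhesion molecule (0.114), and Arnt2, a transcription factor (0.137), where the median over all genes was 0.614. The nearest member, Trp53inp1, lay at 0.450. Cadm1 averaged 345 with the ligand, 325 with the inhibitor and 146 without treatment. For Trp53inp1 the closest genes were Glt28d2 (0.0981) and Megf9 (0.117), with a median of 0.451 over all genes, and the nearest member was Phlda3 at 0.193.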

How the data were processed

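The miRNeasy kit (extraction) and MessageAmp Premier (labelling) were used, per the labels' protocols. MAS5, with no version stated, gave the signals, per the submitters' processing notes. As deposited by the authors, each probe set has 1 linear intensity on each array. They share 1 level (a 2% trimmed mean of 350 on each array), which removes differences in total RNA, and 28.9% were at or below 16, where MAS5 is noisy. Array medians were 46.1 to 57.9. The number of arrays limits the precision.

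The 9 columns were grouped by the labels. Gene names came from the platform annotation: 34958 had 1 gene symbol, 932 had several (not used) and 9211 had none there. Signals became log2(signal + 16), which understates changes of dim genes. Probe sets above the 40th percentile of their array on at least 3 arrays were fitted with limma 3.58.1 in R 4.3.3 (a mean per group, 6 residual degrees of freedom, intensity trend, 2-sided, Benjamini-Hochberg over 28655 probe sets at 0.05). Control probe sets (64) were left out. The script was tested on simulated data.

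The members, lists and tests were chosen with earlier results of these data known. Besides the members, the text names up to 4 genes per list with the smallest p, Mdm4, Cdkn1a, and for members called in both comparisons with untreated the 2 most alike genes. Other genes, such as marker genes, were named after their values were seen. Alternatives left out each array, used the replicate number as a block, 2 groups, offsets of 1 and 64, no filter or the 60th percentile, quantile normalization, median centring, no intensity trend, or 1 probe set per gene. No scan date was available in the files used here.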

Additional observations from a re-analysis of the deposited data

How the results depend on the processing

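With the inhibitor against untreated, the count of called p53 target probe sets (9 of 15) was 9 to 11 when 1 array was left out and 8 to 11 under the other alternatives. For ligand against inhibitor it was 10, with 10 to 11 and 7 to 10, where the lowest values count the 9 lead probe sets alone. No called probe set lost its call in these 2 comparisons under the 19 alternatives. With the ligand against untreated the count of 4 was less stable: 1 to 4 when 1 array was left out, and 1 with only the 2 groups compared, with no filter and with no intensity trend, but 5 under median centring and quantile normalization and 6 with the 60th percentile filter. The count of other p53 pathway genes called with the ligand (20 of 81, 15 higher and 5 lower) was 10 to 19 when 1 array was left out, 13 under median centring (5 higher and 8 lower), 12 with no intensity trend and 25 with 1 probe set per gene. Why these counts moved was not tested. Among the p53 target probe sets and the named pathway genes, the ones followed singly, no called change reversed its direction. The replicate numbers were not taken as pairs: deviations of arrays with the same number correlated at -0.06 to 0.11, and 5 of 18 best matches had the same number. With the replicate block called p53 target probe sets numbered 9 with the inhibitor, 3 with the ligand and 10 between the treatments, and those of other pathway genes 49, 19 and 50. Dim probe sets limit what can be seen: 4 of the 19 lay near or below the offset of 16 and gave no test.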
